A study of Mus musculus with 6 samples.

Results

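Clustered protocadherins were followed in RNA from the olfactory epithelium of mice whose olfactory bulb had degenerated. They were taken as all protein-coding genes whose symbol begins with Pcdha, Pcdhb or Pcdhg, and 57 of the 49164 genes with counts met this rule. All lie on the plus strand of chromosome 18 (GRCm39, coordinates from the deposited gene table). The alpha cluster had 14 members between 37063237 and 37320714, the beta cluster 22 members between 37397991 and 37657532, and the gamma cluster 21 members between 37794846 and 37974926. Pcdhgb8, which the table types as a polymorphic pseudogene, was outside the rule.

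In the 3 sFlt1 mice a tet-sFlt1 transgene, encoding a soluble Flt1 that binds VEGF, was driven by Camk2a-tTA, and the tetracycline in their drinking water was replaced by plain water at embryonic day 13.5. Their bulbs measured 28%, 29% and 14% of normal size by MRI at 2 months in replicates 1, 2 and 3. The 3 controls are labelled WT, untreated and with a normal bulb. All 6 mice were c57Bl6/ICR crossbred, labelled male and 3 months old, and RNA came from the dissected nasal conchae, so the libraries hold every cell type of that tissue. The comparison asks how the sensory tissue differs when its target, the bulb, is reduced.

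Clustered protocadherins are adhesion proteins of the neuronal surface that bind the same isoform on a neighbouring cell. Each neuron switches on a few of the alternative promoters, through Ctcf, cohesin and DNA methylation, and so displays a combination of isoforms. In the alpha and gamma clusters each variable exon is joined to constant exons shared by the cluster, whereas beta genes are made of a single exon of their own. Sensory neurons of the nose use this diversity when their axons sort into glomeruli of the bulb. The C-type genes at the ends of the alpha and gamma clusters are regulated apart from the others, and Pcdhgc4 is known in mice for the survival of inhibitory interneurons.

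The libraries held 30300680, 41669010 and 44449029 counts for sFlt1 replicates 1, 2 and 3, and 32194320, 28832424 and 46444862 counts for control replicates 1, 2 and 3. Of these, the members took 7795, 18972 and 17963 counts in sFlt1 mice and 14833, 14601 and 28351 counts in controls. Several libraries stand apart. Although labelled male, sFlt1 replicate 3 and control replicate 1 had Xist at 524 and 710 CPM (counts per 1000000 reads, relative to TMM-scaled library sizes), with the Y-linked genes at 0.115 and 0.0890 CPM. The summed markers of brain neurons were at 358, 258 and 394 CPM in sFlt1 mice and 411, 317 and 2273 CPM in controls. Control replicate 3 was thus far above the others. Gad1 of that list was at 2.46, 0.851 and 17.4 CPM in sFlt1 mice and 27.4, 26.2 and 569 CPM in controls. For 5 of the 16 listed markers every sFlt1 mouse was below every control, beside 9.51% of all genes tested. The reverse held for 0 markers. Leaving out control replicate 3 therefore does not make the groups equal in these markers. The tissue's own marker Omp, of mature sensory neurons, was at 1317, 2366 and 466 CPM in sFlt1 mice and 3598, 4056 and 2836 CPM in controls.

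The members were tested with edgeR in 1 fit over all genes, and 56 of the 57 passed its filter on low counts. No member passed an adjusted p of 0.05, and neither did any of the 19899 genes tested (0%). The smallest adjusted p was 0.432 among members and 0.417 among all genes. At an unadjusted p under 0.05, 3 members (5.36%) were lower in sFlt1 mice, beside 6.24% of all genes tested, and 0 members were higher, beside 4.84% of all genes. DESeq2 called 2.23% of 19772 genes and none of the 55 members to which it gave an adjusted p. Without adjustment it had 6 of 56 members (10.7%) lower, beside 4.68% of 34158 genes, and 0 higher, beside 3.84%. Those 34158 genes were not filtered on low counts, unlike those tested by edgeR, so the shares of the tools are not directly comparable. By limma voom 0 genes passed (0%), and without adjustment 6 members were lower, beside 6.06% of all genes, and 0 higher, beside 4.66%. In the authors' deposited table, none of the 55 members with an adjusted p passed, beside 394 of the 25330 genes with an adjusted p. The smallest value of a member was 0.0628, for Pcdhb14.

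The estimates of the members nevertheless lay mostly on the same side. The log2 fold change, sFlt1 over control, was below 0 for 51 of 56 members (91.1%), against 48.7% of all genes tested, and its median was -0.66, against 0.02 over all genes. The values of the 3 sFlt1 mice lay below those of all 3 controls for 10 members, or 17.9%, beside 9.51% of all genes. They lay above all 3 controls for 0 members, beside 8.76% of all genes. Members share a locus and, in 2 clusters, exons, so these counts are not independent measurements. Control replicate 3 was the highest library for 35 members. Without it the estimate was below 0 for 39 members (69.6%), against 44.8% of all genes, with a median of -0.30 against 0.06, and 1 member was lower at an unadjusted p under 0.05, beside 3.87% of all genes. Without sFlt1 replicate 2, 7 members (12.5%) were lower at that threshold, beside 7.28% of all genes. Without the libraries with Xist reads it was below 0 for 52 members (92.9%), against 49.7%, with a median of -0.83.

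**Figure D1:**
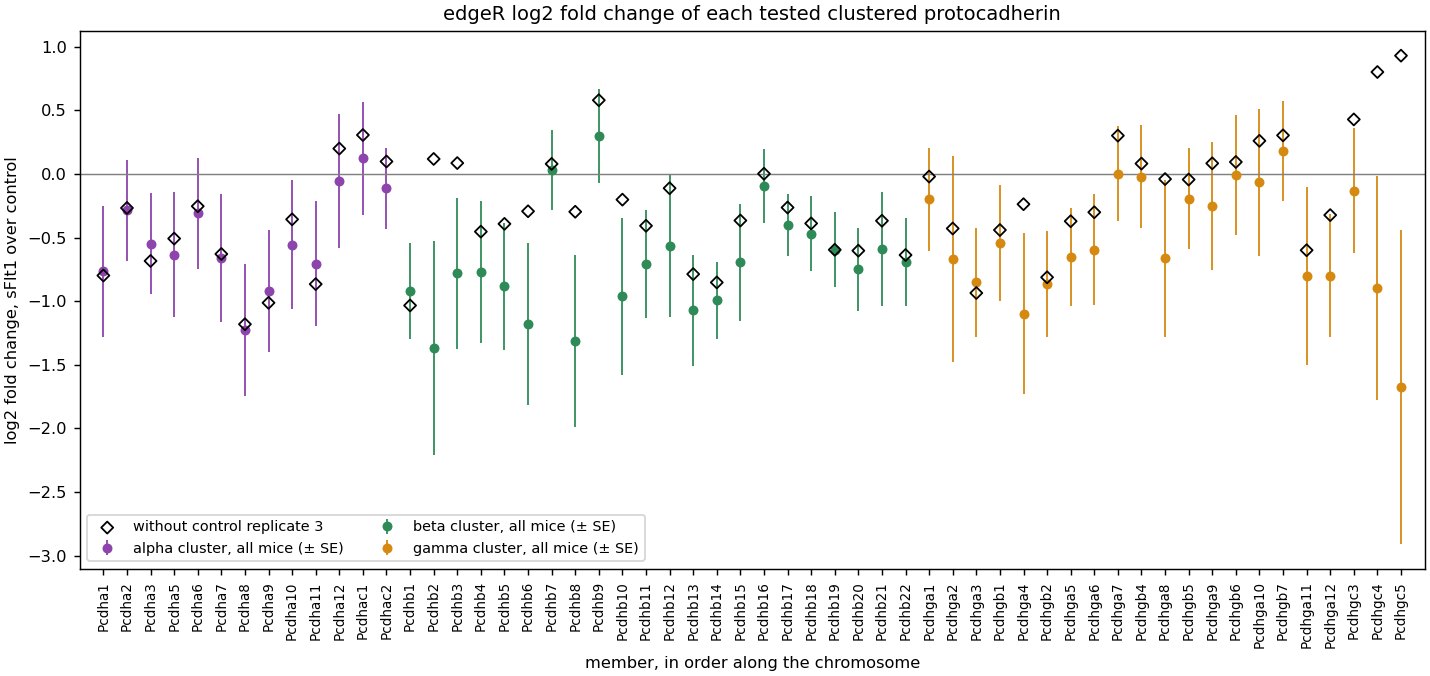
Filled points give the edgeR log2 fold change (sFlt1 over control, y axis) of the 56 tested members with bars of 1 SE, in order along the chromosome and coloured by cluster, and open diamonds give the estimate without control replicate 3. Filled points lie below 0 for 51 members, and the diamonds of the 5 C-type genes all lie above 0.

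In the beta cluster, whose genes carry no constant exon, the summed level was lower in each sFlt1 mouse than in any control. It was 148, 244 and 150.2 CPM in sFlt1 replicates 1, 2 and 3, against 267, 318 and 305 CPM in control replicates 1, 2 and 3. The log2 ratio of the group means was -0.71. Of the 22 members, 20 had estimates below 0, with a median of -0.73, and 17 did so without control replicate 3, with a median of -0.37. The sFlt1 mice lay below all controls for 7 of the 22, Pcdhb5, Pcdhb11, Pcdhb13, Pcdhb14, Pcdhb18, Pcdhb19 and Pcdhb20, beside 9.51% of all genes tested. These 7 share a locus and the same 6 libraries, so they are not separate results.

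Pcdhb1 (ENSMUSG00000051663, 37397991 to 37400578), the member nearest the alpha cluster, was by far the most abundant. Its mean level was 48.7 CPM per kilobase of its own exons, 12.3 times that of the next beta gene, Pcdhb17, at 3.97. It measured 70.1, 140.0 and 51.5 CPM in sFlt1 mice, against 157, 200.1 and 138 CPM in controls. The groups overlapped, since sFlt1 replicate 2 was just above control replicate 3. Its estimate of -0.92 (log2 fold change, SE 0.38, edgeR adjusted p = 0.448) lay between -1.44 (leaving out sFlt1 replicate 2) and -0.65 (leaving out sFlt1 replicate 3) with a mouse left out, and was -1.03 without control replicate 3. Pcdhb1 held 46.3% ± 11.6 of the beta counts in sFlt1 mice and 55.7% ± 9.21 in controls (SD, n = 3 each), which overlapped. Without it, the other 21 beta genes summed to 77.8, 104 and 98.7 CPM in sFlt1 mice and 110.5, 117 and 166 CPM in controls, again without overlap.

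Pcdhb14 (ENSMUSG00000044043, 37580709 to 37589403) had the smallest p of the family. It measured 6.49, 8.90 and 5.84 CPM in sFlt1 mice, against 11.7, 13.8 and 16.7 CPM in controls. Every sFlt1 mouse was below every control, with a log2 fold change of -0.99 (SE 0.30), an edgeR adjusted p of 0.43 and a DESeq2 adjusted p of 0.0661. Without control replicate 3 the estimate was -0.85.

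Pcdhb13, its neighbour upstream, was at 1.61, 2.31 and 1.38 CPM in sFlt1 mice and 2.73, 3.38 and 5.05 CPM in controls. These groups did not overlap either (log2 fold change -1.07, SE 0.43, edgeR adjusted p = 0.445). Pcdhb20 was at 4.04, 6.05 and 4.78 CPM in sFlt1 mice and 7.33, 7.73 and 9.93 CPM in controls, for a log2 fold change of -0.75 (SE 0.33). Pcdhb17, the second most abundant beta gene, overlapped between groups, with 13.8, 15.7 and 18.3 CPM in sFlt1 mice and 17.2, 21.0 and 25.0 CPM in controls. Its log2 fold change of -0.40 (SE 0.24) was -0.26 without control replicate 3.

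The ends of the beta range were set by other genes. Pcdhb9 had the highest estimate, 0.30 (SE 0.37), at 8.28, 10.4 and 14.8 CPM in sFlt1 mice and 8.54, 6.38 and 12.3 CPM in controls. With a mouse left out, the estimate of Pcdhb9 lay between 0.04 (leaving out sFlt1 replicate 3) and 0.58 (leaving out control replicate 3). Pcdhb2 had the lowest, -1.37 (SE 0.84), at 0.491, 0.655 and 0.919 CPM in sFlt1 mice and 0.771, 0.499 and 4.07 CPM in controls. That estimate rested on control replicate 3, and without it was 0.12. Of the 22 beta genes, 16 were highest in control replicate 3.

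**Figure D2:**
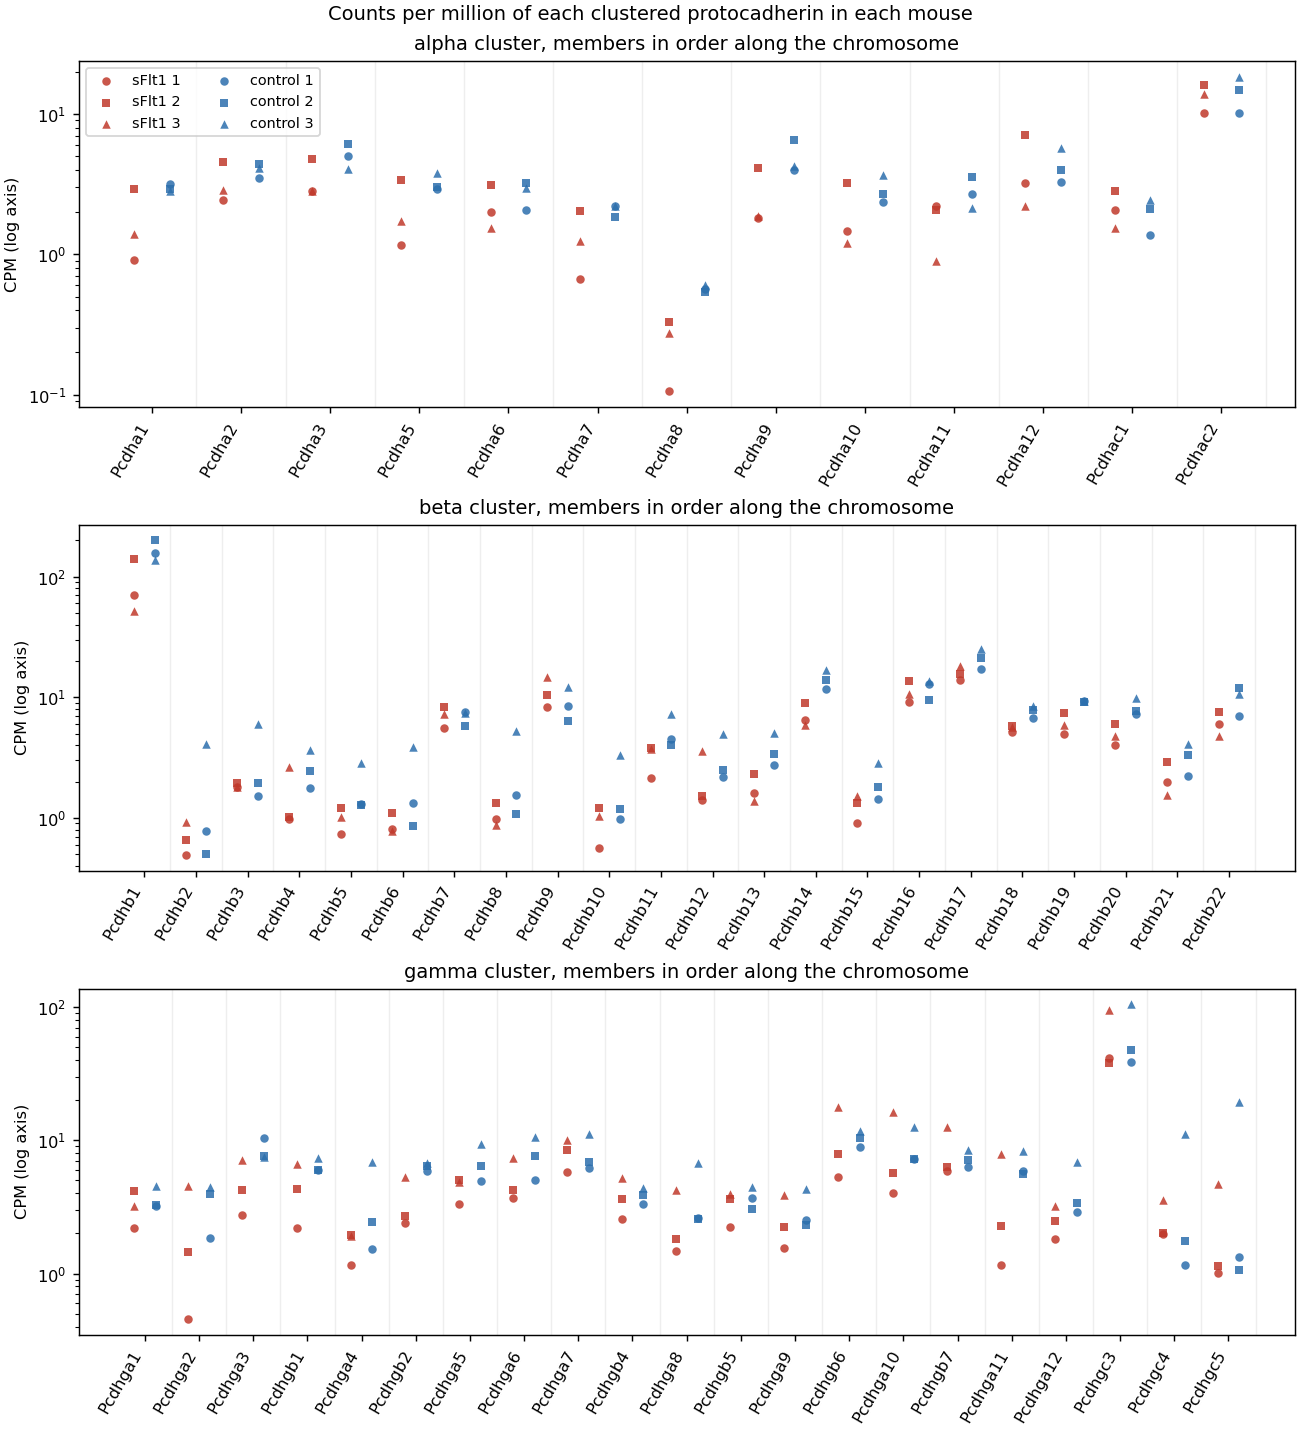
Each point is a member's level in 1 mouse in CPM (log axis), sFlt1 mice in red left of controls in blue, with a marker shape for each replicate and members in order along the chromosome. Pcdha4, with 1 count in all, is not drawn. Pcdhb1 and Pcdhgc3 stand above the rest of their clusters, and the control triangle is far above the other controls for Pcdhb2, Pcdhgc4 and Pcdhgc5.

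The alpha cluster had the lowest summed level, over fewer genes than the others. Per own kilobase the median member was at 1.03 CPM in the alpha, 0.92 in the beta and 1.78 in the gamma cluster. Its summed level was 31.0, 56.5 and 33.4 CPM in sFlt1 mice and 43.4, 55.7 and 57.2 CPM in controls, so that sFlt1 replicate 2 lay within the control range. The log2 ratio of means was -0.37. Of 13 tested members 12 had estimates below 0, with a median of -0.56, and the median was -0.51 without control replicate 3. All 11 tested genes of the Pcdha1 to Pcdha12 row were below 0, with a median of -0.63 both with and without control replicate 3, although Pcdha12 was then at 0.20. The median of the whole cluster was -0.86 without sFlt1 replicate 2, the sFlt1 mouse with the most Omp.

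Pcdha8 (ENSMUSG00000103800), the lowest of the counted alpha genes at 0.162 CPM per own kilobase, had the lowest estimate. It was at 0.105, 0.327 and 0.276 CPM in sFlt1 mice and 0.564, 0.534 and 0.604 CPM in controls, without overlap (log2 fold change -1.23, SE 0.52, edgeR adjusted p = 0.451). This held for 1 of the 13 tested alpha genes, near the 9.51% of all genes tested. Pcdha9 was at 1.83, 4.15 and 1.86 CPM in sFlt1 mice and 4.004, 6.55 and 4.29 CPM in controls, a log2 fold change of -0.92 (SE 0.48) with overlap. Pcdha1 measured 0.913, 2.92 and 1.40 CPM in sFlt1 mice and 3.17, 2.92 and 2.84 CPM in controls. In all 3 genes sFlt1 replicate 2 was the highest sFlt1 mouse. Without it the estimate was -1.42 for Pcdha9 and -1.36 for Pcdha1, and for Pcdha1 it was -0.44 without sFlt1 replicate 1.

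Pcdha3, the most abundant of this row per own kilobase at 1.73, was at 2.81, 4.76 and 2.83 CPM in sFlt1 mice and 5.01, 6.13 and 4.07 CPM in controls (log2 fold change -0.55, SE 0.39, and -0.85 without sFlt1 replicate 2). Pcdha11 was at 2.21, 2.05 and 0.896 CPM in sFlt1 mice and 2.70, 3.56 and 2.15 CPM in controls, and its log2 fold change of -0.70 (SE 0.49) was -0.39 without sFlt1 replicate 3. Pcdha4 had 1 count in all, in control replicate 3, and was not tested. A read-through gene model that starts within it, Gm37013, was listed at 0 counts in every mouse, and the sources used here do not say how reads in overlapping models were counted.

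In the gamma cluster the groups overlapped, and replicate 3 was the highest mouse of both groups. The summed level was 94.7, 114 and 229 CPM in sFlt1 mice and 129, 147 and 272 CPM in controls, and the log2 ratio of means was -0.33. Of 21 members 19 had estimates below 0, with a median of -0.60. Without control replicate 3 these were 12 members, with a median of -0.04, and the log2 ratio of means was 0.08. Without the libraries with Xist reads, sFlt1 replicate 3 among them, all 21 were below 0, with a median of -1.04. The 3 alpha, beta and gamma values were not tested against each other.

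Among gamma A genes 11 of 12 had estimates below 0 (median -0.66), and among gamma B genes 5 of 6 (median -0.11). Without control replicate 3 these were 9 of 12 gamma A genes (median -0.27) and 3 of 6 gamma B genes (median 0.02). Pcdhga3 was at 2.74, 4.23 and 7.10 CPM in sFlt1 mice, against 10.4, 7.59 and 7.47 CPM in controls, without overlap (log2 fold change -0.85, SE 0.43, edgeR adjusted p = 0.50). Pcdhgb2 also did not overlap, at 2.39, 2.71 and 5.33 CPM in sFlt1 mice and 5.84, 6.38 and 6.80 CPM in controls (log2 fold change -0.87, SE 0.42, edgeR adjusted p = 0.49). These were the only 2 of the 21 gamma genes without overlap, near the 9.51% of all genes tested. Without control replicate 3 the estimates were -0.94 for Pcdhga3 and -0.81 for Pcdhgb2, and without sFlt1 replicate 3 they were -1.28 and -1.32. Without sFlt1 replicate 1 the estimate of Pcdhga3 was -0.56.

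Pcdhga4 was at 1.16, 1.96 and 1.91 CPM in sFlt1 mice and 1.54, 2.42 and 6.82 CPM in controls, and its log2 fold change of -1.10 was -0.24 without control replicate 3. Pcdhga5 was at 3.30, 5.04 and 4.83 CPM in sFlt1 mice and 4.95, 6.41 and 9.39 CPM in controls, and its log2 fold change of -0.66 (SE 0.39) was -0.37 without control replicate 3. The abundant gamma B genes had estimates near 0. Pcdhgb6 was at 5.33, 7.90 and 17.7 CPM in sFlt1 mice and 8.93, 10.4 and 11.8 CPM in controls (log2 fold change -0.01, SE 0.47). Pcdhgb7 was at 5.86, 6.33 and 12.6 CPM in sFlt1 mice and 6.26, 7.12 and 8.47 CPM in controls (log2 fold change 0.18, SE 0.39). In both genes sFlt1 replicate 3 was the highest of all 6 mice.

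**Figure D3:**
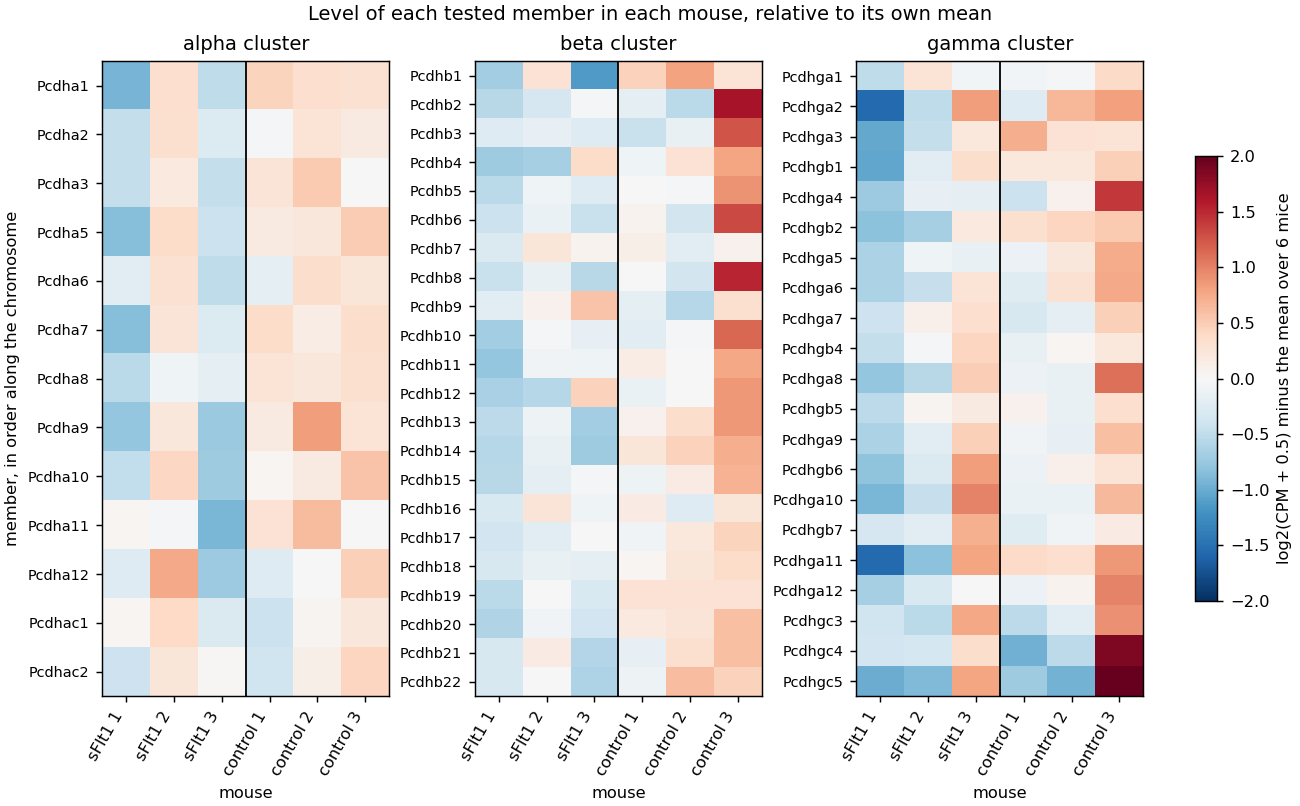
Colour gives log2(CPM + 0.5) of each tested member in each mouse minus that member's mean over the 6 mice, with members down the page in order along the chromosome and sFlt1 mice left of controls. Control replicate 3 holds the highest value of 16 beta and 15 gamma genes, and sFlt1 replicate 1 the lowest value of 19 gamma genes.

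The 5 C-type genes had a smaller median estimate, -0.13, and it moved to 0.43 without control replicate 3, when 0 of 5 were below 0. Without the libraries with Xist reads it moved the other way, to -0.93, with 4 of the 5 genes below 0. Their summed level was 56.97, 60.04 and 119 CPM in sFlt1 mice and 52.6, 67.6 and 156 CPM in controls. Replicate 3 was again the highest of both groups, and these mice also had the highest sum of the astrocyte and oligodendrocyte list. It was 972, 787 and 2266 CPM in sFlt1 mice and 884, 1064 and 3076 CPM in controls. The genes of that list did not move together in sFlt1 mice. Gfap, Aqp4, Slc1a2, Slc1a3 and Aldoc were highest in sFlt1 replicate 3, but Gja1, Mbp, Mog, Mobp and Mag in sFlt1 replicate 1. The part of these cells in the C-type values was not tested.

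Pcdhgc3 (ENSMUSG00000102918, 37939417 to 37974926) was the most abundant gamma gene at 18.04 CPM per own kilobase. It was at 41.8, 37.9 and 94.95 CPM in sFlt1 mice and 38.5, 48.0 and 105 CPM in controls, and its log2 fold change of -0.13 (SE 0.49) was 0.43 without control replicate 3. Pcdhac2, the most abundant alpha gene, was at 10.1, 16.2 and 13.8 CPM in sFlt1 mice and 10.2, 14.7 and 18.4 CPM in controls (log2 fold change -0.11, SE 0.32). Pcdhac1 was at 2.07, 2.82 and 1.54 CPM in sFlt1 mice and 1.36, 2.10 and 2.44 CPM in controls (log2 fold change 0.12, SE 0.44). All 3 overlapped between groups.

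Pcdhgc4 and Pcdhgc5 differed mainly in a single mouse. Pcdhgc4 was at 1.97, 2.03 and 3.59 CPM in sFlt1 mice and 1.16, 1.75 and 11.2 CPM in controls. Pcdhgc5 was at 1.02, 1.13 and 4.71 CPM in sFlt1 mice and 1.33, 1.07 and 19.5 CPM in controls. Their log2 fold changes of -0.90 (SE 0.88) and -1.67 (SE 1.23) were 0.80 and 0.93 without control replicate 3, the library rich in brain neuron markers.

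**Figure D4:**
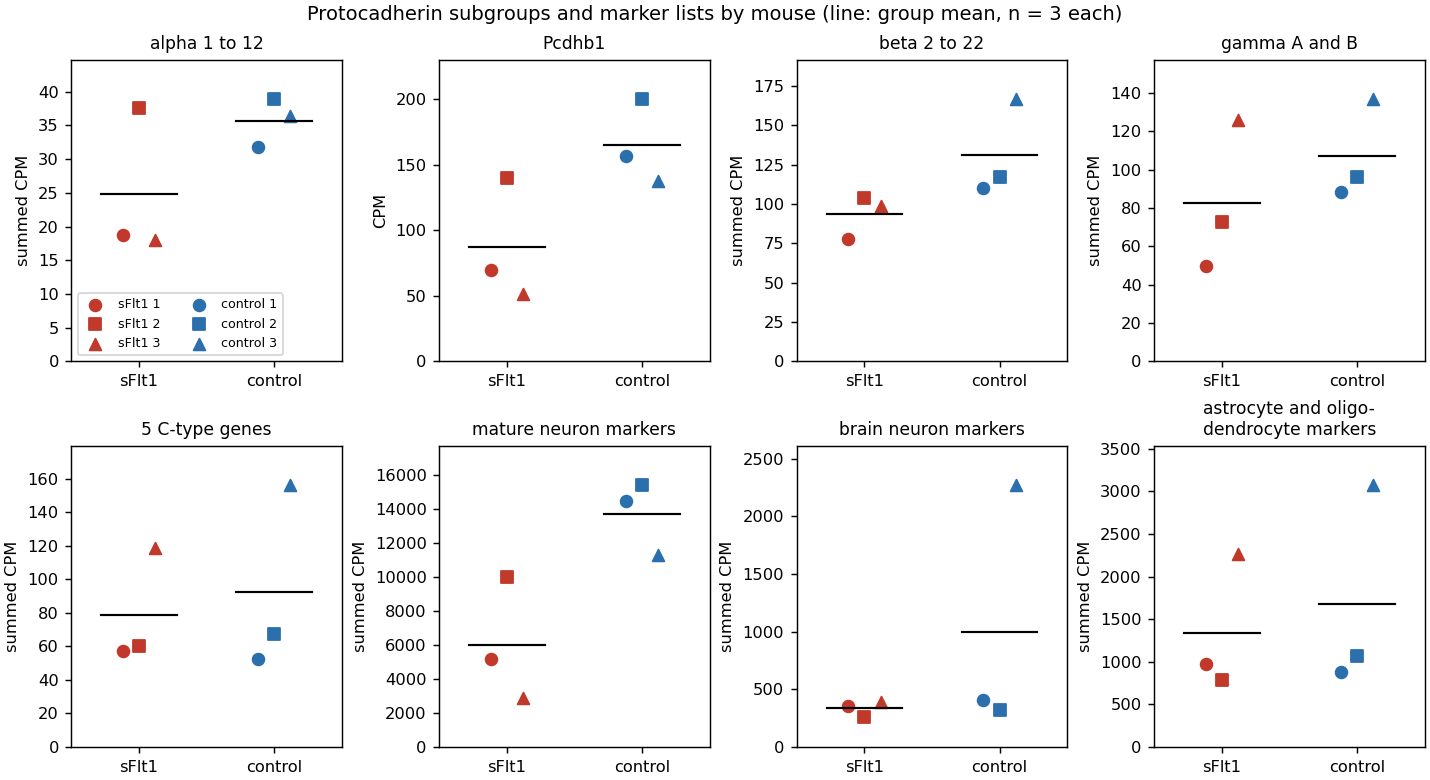
Each panel gives a subgroup's or marker list's summed CPM in each mouse (y axis from 0), sFlt1 left of control, with a line at the group mean (n = 3 each). The 21 beta genes other than Pcdhb1 do not overlap between groups, and mature neuron markers are below all controls in each sFlt1 mouse.

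Isoform use within the clusters was described by each member's share of its cluster's counts. No member other than Pcdhb1, Pcdhac2 and Pcdhgc3 held more than 12.5% of its cluster in any mouse. Shares have no counterpart over all genes, so they are given as a description. The members compared next are all those of the 57 whose shares did not overlap between groups. They were picked from these same values, and the shares of the remaining members overlapped. Pcdhb9 held 6.56% ± 2.90 of the beta counts in sFlt1 mice and 3.08% ± 1.01 in controls, and the shares of Pcdhb16 and Pcdhb7 were likewise higher in every sFlt1 mouse than in any control. The beta total includes Pcdhb1, at 46.3% in sFlt1 mice and 55.7% in controls, so the other beta shares rise where its share falls. Shares of a beta total without Pcdhb1 are not given. Pcdhac1 held 5.42% ± 1.10 of the alpha counts in sFlt1 mice and 3.72% ± 0.56 in controls, while Pcdha8 and Pcdha9 were lower (SD, n = 3 each). In the gamma cluster the share of Pcdhgb7 was higher and that of Pcdhga12 lower. The 95% Wilson intervals, which cover counting error only, were at most 3.09 percentage points to either side.

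The evenness of use was given as the effective number of members, the exponential of the Shannon entropy of the shares. It was 9.06, 9.81 and 7.95 for the alpha cluster in sFlt1 mice and 10.75, 10.14 and 9.56 in controls. For the gamma cluster it was 9.68, 12.71 and 10.32 in sFlt1 mice and 13.54, 12.98 and 11.66 in controls, and for the beta cluster 8.06, 6.2 and 10.8 in sFlt1 mice and 6, 5.19 and 9.48 in controls. All 3 overlapped between groups. Along the chromosome, the estimates and the order of genes had a Spearman correlation of 0.36 over 13 alpha genes, 0.47 over 22 beta genes and 0.03 over 21 gamma genes. Without control replicate 3 these were 0.38, -0.29 and 0.63, and all genes share the same 6 libraries.

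Since a bulk library cannot tell fewer cells of a type from less RNA per cell, the members were set beside marker genes of the tissue's cells. All 15 markers of mature sensory neurons had estimates below 0, with a median of -1.15 and sums of 5201, 9968 and 2857 CPM in sFlt1 mice and 14478, 15416 and 11271 CPM in controls. Markers of immature neurons, neuronal precursors and dividing cells had medians of 0.72, 0.95 and 1.31. The medians were 0.74 for horizontal basal cells, -0.06 for sustentacular cells, -1.56 for ensheathing glia and Schwann cells, -0.83 for astrocytes and oligodendrocytes, 0.17 for endothelial cells and 0.60 for fibroblasts. Without control replicate 3 those 6 medians were 0.65, -0.10, -0.79, 0.75, 0.30 and 0.31, and that of fibroblasts was 1.696 without the libraries with Xist reads. By edgeR 0 genes of any of the 11 marker lists passed. DESeq2 passed 3 markers of precursors, 3 of dividing cells, 4 of ensheathing glia and 3 of brain neurons. No marker of any of these lists was at 0 in all mice.

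The log2 of each cluster's summed CPM was set against the mean log2(CPM + 1) of the mature neuron markers, which is an unlike measure. On this scale the alpha cluster was 0.97 higher in sFlt1 mice than in controls, and 0.78 higher without its C-type genes. Pcdhb1 was 0.35 higher. These 3 values did not overlap between groups, while the beta and gamma clusters overlapped at 0.63 and 1.03. The pattern depended on the reference. Against the brain neuron markers, the gamma cluster was 1.33 higher without overlap. The alpha cluster, alpha without C-type genes, the beta cluster and Pcdhb1 then overlapped, at 1.27, 1.08, 0.93 and 0.65. Without control replicate 3, gamma was at 0.74 and Pcdhb1 at -0.38 against those markers. The brain neuron list had a median of -2.66, which was -0.59 without control replicate 3. In it Eomes, of bulb projection neurons, was at 5.58, 8.66 and 5.77 CPM in sFlt1 mice and 23.3, 25.1 and 81.7 CPM in controls, and passed DESeq2 (adjusted p = 0.000686) but not edgeR (adjusted p = 0.43). Calb2, the most abundant of that list, was at 176, 151 and 161 CPM in sFlt1 mice and 164, 92.6 and 261 CPM in controls. The part of mature neurons and of brain tissue in the protocadherin values was not tested.

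Of the 20 genes that act on promoter choice, 16 had estimates above 0 and 4 below, with a median of 0.21, and 0 passed by edgeR or DESeq2. Smchd1, a chromatin silencer that represses clustered protocadherins in mice, was at 102, 119.9 and 111 CPM in sFlt1 mice and 88.7, 71.7 and 78.7 CPM in controls. Every sFlt1 mouse was above every control (log2 fold change 0.48, SE 0.16, edgeR adjusted p = 0.43). This held for 4 of the 20 genes, Smchd1, Wapl, Pds5a and Rest, beside 8.76% of all genes tested. The part of Smchd1 in the protocadherin values was not tested. Ctcf, which loops promoters to enhancers, averaged 111 ± 23.3 CPM in sFlt1 mice and 111 ± 2.30 CPM in controls (SD, n = 3 each). The cohesin subunit Rad21, the most abundant of the list, averaged 229.7 ± 64.5 CPM in sFlt1 mice and 258 ± 32.1 CPM in controls.

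Of the 19 cytoplasmic signalling partners, 11 had estimates below 0 and 8 above, with a median of -0.06, which was 0.16 without control replicate 3, and 0 passing by either tool. Wasf1, a subunit of the WAVE complex that binds to protocadherin tails, was at 7.02, 8.90 and 10.8 CPM in sFlt1 mice and 15.9, 10.8 and 37.0 CPM in controls (log2 fold change -1.25, SE 0.48, edgeR adjusted p = 0.44), and its estimate was -0.58 without control replicate 3. Another subunit, Cyfip2, was at 226, 253 and 335 CPM in sFlt1 mice and 273, 251 and 337 CPM in controls.

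Protocadherins encoded outside the clusters had 10 of 12 estimates below 0, with a median of -0.31, which was -0.11 without control replicate 3. Pcdh17 was at 87.4, 120.3 and 117 CPM in sFlt1 mice and 131, 155 and 185 CPM in controls, without overlap (log2 fold change -0.54, SE 0.21, edgeR adjusted p = 0.44). Pcdh7, the most abundant, was at 142, 196 and 271 CPM in sFlt1 mice and 174, 184 and 211 CPM in controls. None of the 12 passed by either tool.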

How the data were processed

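RNA of 6 mice was sequenced from 200 ng of total RNA each. The submitters' processing notes name cutadapt 3.5, TopHat2 2.2.1, HTSeq 2.0.1, DESeq2 1.26.0 and GRCm39. The sources used here do not give the settings for strand and shared reads. Raw, whole-number read counts per gene make up the deposited table, with 6250 of 55414 entries empty, and, per the file headers, the authors' DESeq2 log2 fold changes and adjusted p-values. Another 48 per-sample columns were not used.

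The main test was the quasi-likelihood test of edgeR 4.0.16 in R 4.3.3 (TMM, filterByExpr, no covariate, Benjamini-Hochberg over all tested genes), with alternatives from DESeq2 1.42.0 and limma 3.58.1 (voom). The code was tested on simulated data. Levels per kilobase use exonic bases that no other gene of the strand shares, from GENCODE M21 (GRCm38), matched by Ensembl ID for all 57 members. The labels do not say that replicates are more than separate mice of a group, so p-values measure the spread between mice. No library pair agreed within sampling noise (smallest chi-square over its degrees of freedom 76.5).

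The members and gene lists were chosen with earlier results of these data known. Named were all C-type genes and, per cluster, the 4 smallest p, the 2 highest levels and both extremes of the fold change. Of marker lists, most genes that this rule names are not printed.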

Additional observations from a re-analysis of the deposited data

How the results depend on the processing

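Of the 23 members named by the rule, 15 kept their direction under all 15 alternatives, and 17 of 343 values changed sign. The number of members passing was 0 under each of the 15. Over all genes, DESeq2 called 441 and edgeR 0 to 1 with a mouse left out, the 1 without control replicate 2 (adjusted p = 0.0444). With a mouse left out, the median log2 fold change ranged between -0.855 and -0.329 for the alpha cluster, lowest without sFlt1 replicate 2. It ranged between -0.859 and -0.367 for the beta cluster and between -0.962 and -0.04 for the gamma cluster, each nearest 0 without control replicate 3. The log2 ratio of mean sums ranged between -0.695 and -0.19 for alpha, -0.992 and -0.567 for beta and -0.813 and 0.078 for gamma, the last positive without control replicate 3. The gamma ratio was -1.002 without both libraries with Xist reads. The causes were not tested.

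With a mouse left out, the log2 fold change changed sign for 11 of the named genes. It ranged between -0.127 and 0.311 for Pcdhac1, -0.274 and 0.098 for Pcdhac2, -1.809 and 0.118 for Pcdhb2, -0.651 and 0.326 for Pcdhgb6, and -0.258 and 0.4 for Pcdhgb7. It ranged between -0.68 and 0.428 for Pcdhgc3, -1.291 and 0.801 for Pcdhgc4, -2.766 and 0.929 for Pcdhgc5, -0.389 and 0.341 for Calb2, -0.262 and 0.059 for Cyfip2, and -0.167 and 0.322 for Pcdh7. The highest value came without control replicate 3 for Pcdhac2, Pcdhb2, Pcdhgc3, Pcdhgc4, Pcdhgc5 and Calb2. Without the libraries with Xist reads Pcdhgb7 was at -0.35 and Pcdh7 at -0.219. Pcdhgb6 was at 0.005 with DESeq2 size factors and 0.001 by DESeq2, and Calb2 at 0.034 by voom.

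No label says that replicate numbers pair the mice, and deviations of same-numbered mice correlated at 0.07, 0.27 and 0.36. With the replicate block 0 genes passed, the medians were -0.67, -0.697 and -0.6 for alpha, beta and gamma, and Calb2 was at 0.036. It changed no other call or direction among the results named.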

Other observations

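Pcdhgb8, a pseudogene in some strains, had 22, 72 and 42 counts in sFlt1 mice and 22, 25 and 149 counts in controls.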
